A study of Mus musculus with 2 samples.

Results

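Imprinted genes are copied from only 1 of the parental chromosomes, a state set by DNA methylation laid down in the egg or sperm, and many of them steer the growth of the embryo. The 10 imprinted growth genes described here were named as a list and are all kept, whatever their values. They comprise the growth factor gene Igf2 and its neighbour H19, Dlk1 and its neighbour Meg3, and Nnat, Peg3, Cdkn1c, Grb10, Mest and Plagl1. All 10 had a row in both count tables, among 18323 gene rows that the tables share.

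The cells came from wildtype C57Bl/6 embryos of 2 stages, E11.5 and E9.5, in embryonic days. They were taken from the AGM (aorta, gonad and mesonephros), the site in the embryo proper where blood stem cells first form, and from the yolk sac, the membrane that makes the earliest blood. Living cells, which exclude the dye 7AAD, had been sorted as positive for VE-cadherin, a junction protein of endothelium, or negative for it (the surrounding microenvironment), with doublets left out in the sort, and single cells were dispensed into the wells of an ICELL8 chip. Each stage had 1 chip, so stage and chip cannot be told apart. The labels do not say how many embryos a pool held, and each of the 8 pools is 1 sample. No test across samples was therefore possible and no p-value is given. A difference is called here at 2-fold or more with at least 20 counts over the pair of pools. Intervals are exact 95% intervals of counting error, without the spread between embryos. Counts per gene do not separate the parental copies.

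Background on the genes comes from mouse genetics. Igf2 encodes a growth factor of the embryo, made from the paternal copy, and H19 is a long noncoding RNA made from the maternal copy of the same locus. A control region between them, bound by CTCF on the maternal chromosome, decides which of the 2 the shared enhancers act on. Dlk1, a membrane protein of the Notch ligand type, and Meg3, a long noncoding RNA, form a similar paternal and maternal pair on another chromosome. Cdkn1c encodes an inhibitor of cyclin-dependent kinases and Grb10 an adaptor that dampens signals of the insulin and IGF receptors. Both restrain growth. Peg3 and Plagl1 encode zinc finger proteins, Mest a protein of the hydrolase fold and Nnat a small protein of the endoplasmic reticulum membrane. In adult mice, maternal H19 and Cdkn1c are known for holding blood stem cells in quiescence.

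The wells kept (at least 500 genes) numbered 287 to 379 per pool at E11.5 and 299 to 354 per pool at E9.5, with 850258 to 1630507 and 1382810 to 3862642 counts per pool. The filter kept 287 of 372 AGM positive and 357 of 388 yolk sac positive wells at E11.5, against 299 of 299 and 325 of 326 at E9.5. Median genes per kept well in these pools were 749 and 762 at E11.5 and 1831 and 1504 at E9.5. Median depth was 2532 to 3842 counts per well at E11.5 and 3961 to 12452 counts per well at E9.5, with the highest value in the E9.5 yolk sac negative pool. The summed level of 12 endothelial markers was 1837 and 1345 CPM (counts scaled to a common pool total) in the AGM and yolk sac positive pools at E11.5 and 2011 and 2351 CPM in those at E9.5. In the 4 negative pools it was 42.7 to 104 CPM. The negative control wells had 521 CPM at E11.5 and 1085 CPM at E9.5, on small totals of 17289 and 6452 counts. Wells with at least 3 of these markers made up 49.1% of the AGM and 39.5% of the yolk sac positive pool at E11.5, against 95% and 89.2% at E9.5. Haemoglobin rows took 25.5%, 35.7% and 32.9% of the counts at E11.5 in AGM positive, yolk sac positive and negative wells, against 22.2%, 17.7% and 37% in those wells at E9.5. In AGM negative wells they took 3.48% at E11.5 and 4.31% at E9.5. Since a large haemoglobin share lowers the CPM of every other gene, counts of calls are also given with TMM factors, a scaling that centres the bulk of the genes, and for some pairs also with haemoglobin, mitochondrial or ribosomal RNA rows left out of the totals. TMM factors shifted every log2 ratio of a pair by between -1.13 (AGM over yolk sac, negative pools, E9.5) and 0.63 (positive over negative, AGM, E11.5). No called ratio of a member changed sign under any scaling or well filter tried. Of the well barcodes, 1482 occurred on the E11.5 chip and 1284 on the E9.5 chip, and 381 on both.

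Igf2 lies at chr7:142650766-142666816 on the minus strand (GRCm38, GENCODE vM21), 72623 bases above the end of H19 at chr7:142575529-142578143, also on the minus strand. Igf2 had a count in 75.3% to 98.7% of the wells of each pool. Igf2 had 670 and 1126 CPM in positive and negative AGM wells and 837 and 1985 CPM in positive and negative yolk sac wells at E11.5. Its E9.5 levels were 558 and 375 CPM in the same AGM gates and 695 and 159 CPM in the same yolk sac gates. The order thus began and ended with the same sort: the yolk sac negative pool was highest at E11.5 (95% interval 1917 to 2055) and lowest at E9.5 (147 to 172). In that order only the E9.5 yolk sac positive and E11.5 AGM positive pools, which are neighbours, had a ratio whose interval holds 0 on the log2 scale (0.05, -0.10 to 0.20).

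H19 had 1578 and 2167 CPM in positive and negative AGM wells and 1945 and 3423 CPM in positive and negative yolk sac wells at E11.5. At E9.5 it stood at 1358 and 807 CPM in the same AGM gates and 1417 and 1304 CPM in the same yolk sac gates. It was found in 94.4% to 100% of the wells of every pool before thinning. Its lowest pool was the E9.5 AGM negative one (765 to 851), and the E9.5 yolk sac positive, AGM positive and yolk sac negative pools followed each other within counting error.

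**Figure D1:**
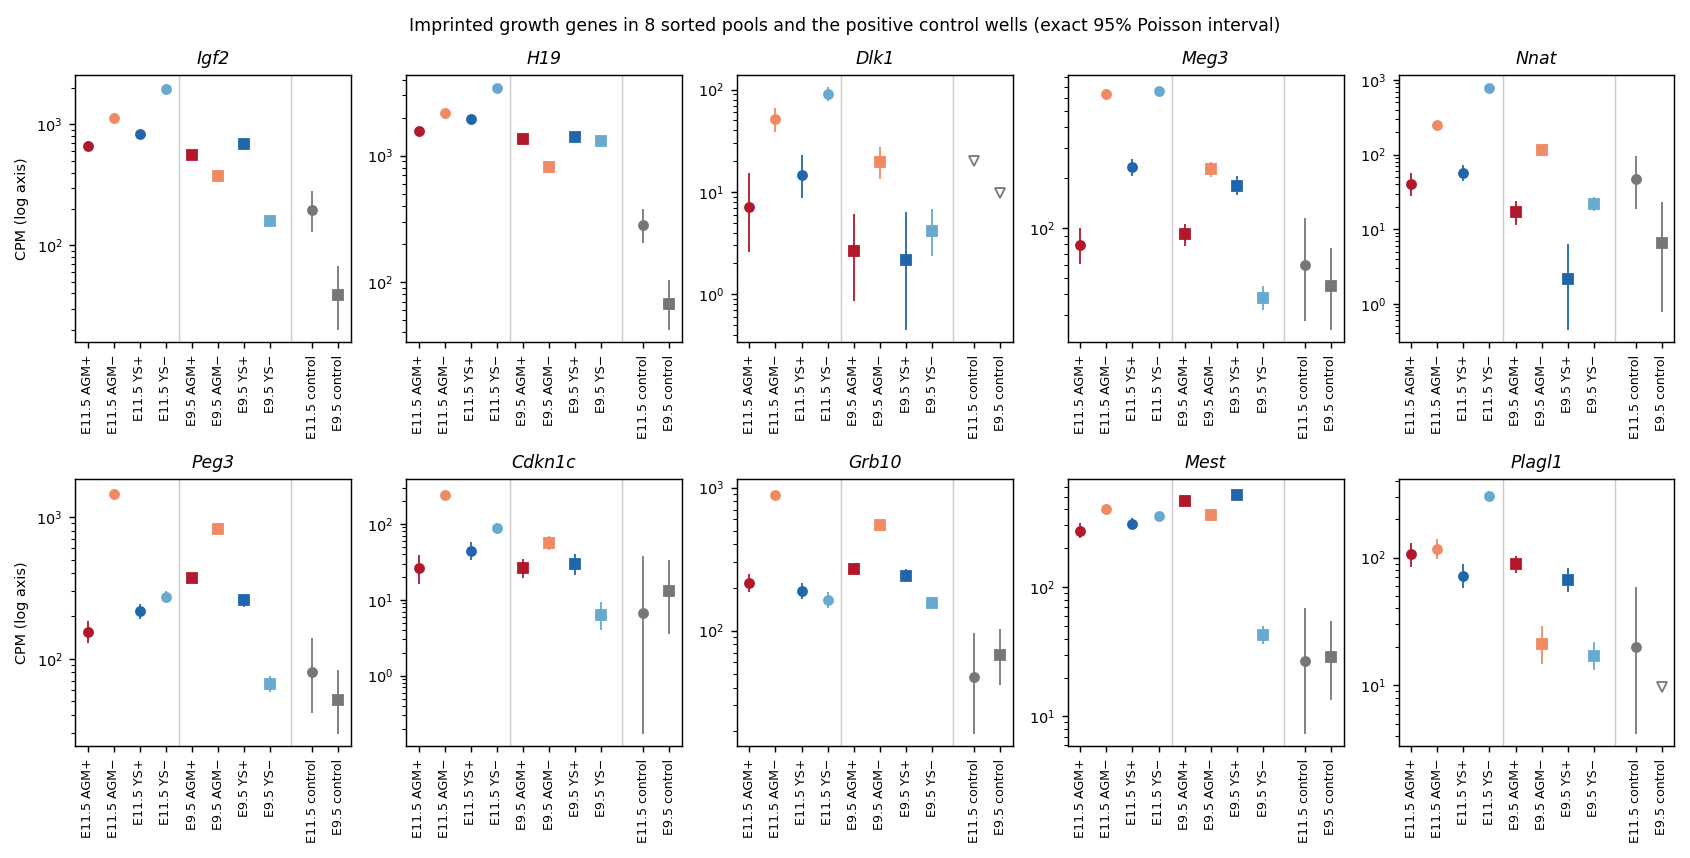
Level of each imprinted gene (CPM, log axis) in the 4 pools of E11.5 (circles) and of E9.5 (squares) and in the positive control wells (grey). Red is AGM and blue yolk sac, dark is VE-cadherin positive and light negative; bars are exact 95% Poisson intervals, and open triangles mark the level of 3 counts where a control had none. The E11.5 yolk sac negative pool is the highest for Igf2, H19, Dlk1, Meg3, Nnat and Plagl1, the E11.5 AGM negative pool for Peg3, Cdkn1c and Grb10, and the E9.5 yolk sac positive pool for Mest.

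The count of H19 over that of Igf2 set 1 pool apart. At E11.5 it was 2.35 and 1.93 in positive and negative AGM wells and 2.32 and 1.72 in positive and negative yolk sac wells. At E9.5 it was 2.43 and 2.15 in the AGM gates and 2.04 in yolk sac positive wells. In the E9.5 yolk sac negative pool it was 8.19 (95% interval 7.53 to 8.92), from 5037 H19 and 615 Igf2 counts. This ratio compares pools and not molecules, since the genes differ in length, and it does not depend on the pool total. It was chosen after its values were seen. H19 was present in 100% and Igf2 in 83.9% of the 305 wells of that pool.

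Within the E9.5 yolk sac negative pool the ratio varied little. It was 7.89 (7.07 to 8.83) in the 167 wells with at least 3 visceral endoderm markers and 8.12 (7.43 to 8.89) in the 254 wells with at least 3 mesenchymal markers. Its 152 wells richest in haemoglobin had 7.34 and the other 153 had 8.84. Its counterpart at E11.5 had 1.69 (1.62 to 1.77) in 313 wells with visceral endoderm markers and 1.73 (1.65 to 1.8) in 377 wells with mesenchymal markers. These sets hold most wells of their pools (82.6% and 99.5% at E11.5, 54.8% and 83.3% at E9.5), so they largely repeat the pool ratio and do not isolate a cell type. Summed visceral endoderm markers reached 3211 CPM in the E11.5 yolk sac negative pool and 314 CPM in the E9.5 one, with all 9 of 9 markers present in each. They did not mark the negative gate: at E11.5 the yolk sac positive pool had 8040 CPM of them, with at least 3 in 98.3% of its wells, and the negative control wells had 3181 CPM. Mesenchymal markers reached 8671 and 851 CPM in the E11.5 and E9.5 yolk sac negative pools, with 10 of 10 present. The negative control wells of those chips had 3123 and 775 CPM of them. The part of these differences in marker levels in the ratio was not tested.

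**Figure D2:**
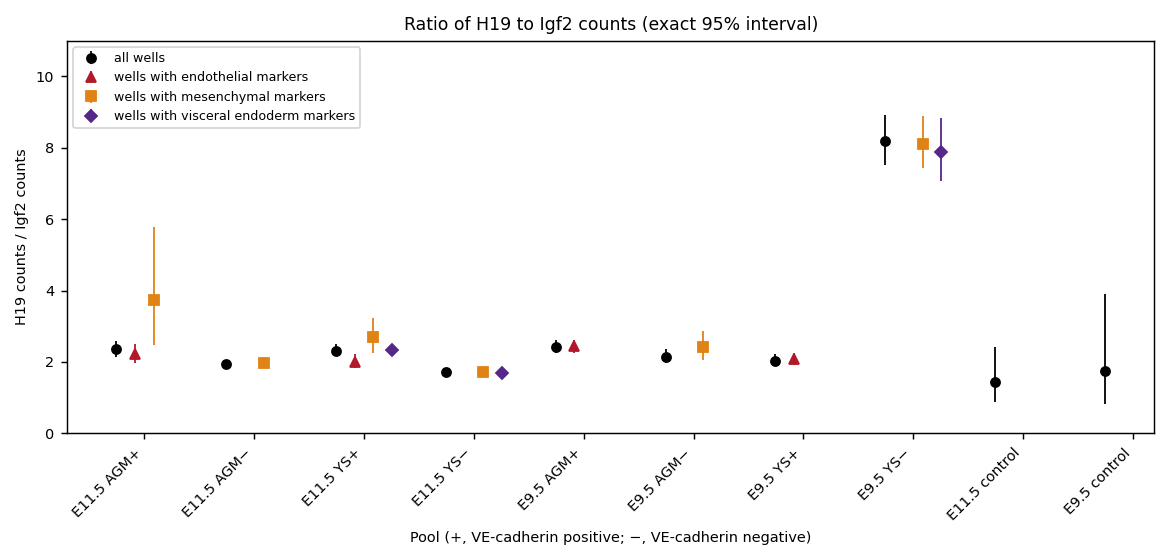
H19 counts divided by Igf2 counts (linear axis) in each pool and in the positive control wells, for all wells and for wells with at least 3 markers of a cell type; bars are exact 95% intervals. The E9.5 yolk sac negative pool lies at 8.19 for all wells and the other 7 pools between 1.72 and 2.43.

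Dlk1 lies at chr12:109452823-109463336 and Meg3 at chr12:109541001-109571726, both on the plus strand, 77665 bases apart, and Rian, a maternally expressed noncoding RNA, begins 32214 bases after Meg3. Nnat lies at chr2:157560078-157562522 on the plus strand. These genes had their highest levels in the negative pools at E11.5. The bases before their transcription starts are shown because Nnat was the single member called the same way in all gate and all stage pairs, because Dlk1 and Meg3 share a locus, and because Peg3 was the member that stayed higher in AGM than in yolk sac negative pools under every scaling. They are the 250 bases upstream of the RefSeq start (GRCm38.p6), 5′ to 3′ on the gene's strand, for Nnat at chr2:157559828-157560077, for Dlk1 at chr12:109452573-109452822, for Meg3 at chr12:109540746-109540995 and, on the minus strand, for Peg3 at chr7:6730420-6730669. Capitals mark CG pairs, the bases that carry DNA methylation.
Nnat: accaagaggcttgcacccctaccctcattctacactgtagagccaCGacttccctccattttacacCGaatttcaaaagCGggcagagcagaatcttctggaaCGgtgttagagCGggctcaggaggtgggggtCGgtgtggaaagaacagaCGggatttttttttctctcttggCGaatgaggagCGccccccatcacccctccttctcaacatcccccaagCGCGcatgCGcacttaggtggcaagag
Dlk1: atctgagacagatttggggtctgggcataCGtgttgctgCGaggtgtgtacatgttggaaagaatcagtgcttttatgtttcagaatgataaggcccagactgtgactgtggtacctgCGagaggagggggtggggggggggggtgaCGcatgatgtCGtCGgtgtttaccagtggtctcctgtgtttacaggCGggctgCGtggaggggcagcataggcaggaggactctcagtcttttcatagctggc
Meg3: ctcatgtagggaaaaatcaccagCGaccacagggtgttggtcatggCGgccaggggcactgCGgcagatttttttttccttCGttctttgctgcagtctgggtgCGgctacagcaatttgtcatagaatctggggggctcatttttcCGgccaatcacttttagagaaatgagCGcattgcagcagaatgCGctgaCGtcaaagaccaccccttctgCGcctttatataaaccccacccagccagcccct
Peg3: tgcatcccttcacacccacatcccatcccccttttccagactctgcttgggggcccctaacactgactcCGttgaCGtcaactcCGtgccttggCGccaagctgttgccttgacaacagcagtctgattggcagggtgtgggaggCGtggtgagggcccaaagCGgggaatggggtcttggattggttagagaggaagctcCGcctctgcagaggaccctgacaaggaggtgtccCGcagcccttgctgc

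The Nnat window holds 12 CG pairs, Meg3's 10 and those of Dlk1 and Peg3 8 each, and 33.5%, 37.8% and 43% of all 32851 such windows hold at least as many. The letters TGACGTCA, the consensus of the cAMP response element and the same on both strands, occur in the Meg3 window and in that of Peg3, 2 of the 8 members with a window, and in 1.55% of all windows. GGGGCCCC, the core bound by Plagl1, occurs in the window of Peg3 alone among the members and in 0.889% of all windows. The first motif was searched after the sequences were seen. A match is a description of the letters and no more.

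Nnat had 40 and 252 CPM in positive and negative AGM wells and 57 and 769 CPM in positive and negative yolk sac wells at E11.5. The E9.5 pools gave 16.8 and 115 CPM in the same AGM gates and 2.17 and 22 CPM in the same yolk sac gates. In the E9.5 yolk sac positive pool this rests on 3 counts in 325 wells. Wells were thinned to 2000 counts each, so that depth is equal, to compare shares of wells. On that scale 73.2% of the E11.5 yolk sac negative wells had a Nnat count, against 4.31% of the E9.5 ones (90.2% and 23.9% before thinning). The positive control wells, which hold RNA of E14FF mouse embryonic stem cells, gave 8.32% at E11.5 and 1.57% at E9.5.

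Meg3 had 78.8 and 632 CPM in positive and negative AGM wells and 231 and 658 CPM in positive and negative yolk sac wells at E11.5. Its E9.5 levels were 91.5 and 224 CPM in the same AGM gates and 179 and 38.3 CPM in the same yolk sac gates. Its top pair, the negative pools of E11.5, differed by a log2 ratio of 0.06 (-0.08 to 0.20). Dlk1, a ligand-like protein of progenitor cells, was the member with fewest counts. Dlk1 had 7.06 and 51.2 CPM in positive and negative AGM wells and 14.7 and 91.4 CPM in positive and negative yolk sac wells at E11.5. At E9.5 it stood at 2.63 and 19.4 CPM in the same AGM gates and 2.17 and 4.14 CPM in the same yolk sac gates. From the E9.5 AGM negative pool downwards in its order, no neighbouring pools of Dlk1 differed beyond counting error, and the lowest pool had 3 counts. Of the wells with a Meg3 count, 12.7% had a Dlk1 count in the E11.5 AGM negative pool and 30.5% in the E11.5 yolk sac negative pool.

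Peg3 (chr7:6703892-6730431, minus strand), Cdkn1c (chr7:143458339-143461050, minus strand) and Grb10 (chr11:11930508-12038683, minus strand) had their highest level in the E11.5 AGM negative pool. Peg3 had 154 and 1451 CPM in positive and negative AGM wells and 218 and 272 CPM in positive and negative yolk sac wells at E11.5. The E9.5 pools gave 368 and 828 CPM in the same AGM gates and 259 and 66.5 CPM in the same yolk sac gates. The negative AGM pools of the 2 stages were thus its highest. Cdkn1c had 25.9 and 240 CPM in positive and negative AGM wells and 44 and 87.7 CPM in positive and negative yolk sac wells at E11.5. Its E9.5 levels were 26.3 and 55.9 CPM in the same AGM gates and 29.6 and 6.21 CPM in the same yolk sac gates. Only its 2 highest pools, both negative and of E11.5, stood apart from their next neighbours, as did its lowest pool from the rest. Grb10 had 216 and 888 CPM in positive and negative AGM wells and 190 and 164 CPM in positive and negative yolk sac wells at E11.5. At E9.5 it stood at 270 and 547 CPM in the same AGM gates and 242 and 156 CPM in the same yolk sac gates. Grb10 was the flattest of the 3 outside the AGM negative pools: its other 6 pools lay between 156 and 270 CPM, and none of their neighbours in order differed beyond counting error.

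Mest (chr6:30723547-30748465, plus strand) and Plagl1 (chr10:13060504-13131694, plus strand) were, like Igf2 and H19, higher in the positive than in the negative pool of both tissues at E9.5. For H19 in the yolk sac this was slight (log2 0.12, 0.04 to 0.20) and depended on the scaling. TMM factors shifted the ratios of that pair by -0.83, which puts H19 lower in the positive pool. Mest had 274 and 402 CPM in positive and negative AGM wells and 310 and 353 CPM in positive and negative yolk sac wells at E11.5. The E9.5 pools gave 460 and 364 CPM in the same AGM gates and 515 and 42.7 CPM in the same yolk sac gates. Leaving out the last of these, its pools lay within 274 to 515 CPM. Plagl1 had 106 and 118 CPM in positive and negative AGM wells and 72.5 and 305 CPM in positive and negative yolk sac wells at E11.5. Its E9.5 levels were 88.8 and 21.2 CPM in the same AGM gates and 67.3 and 17.1 CPM in the same yolk sac gates. The single well with most Plagl1 counts held 15.7% of them in the E11.5 yolk sac positive pool. Mest shares its position with Copg2 on the other strand (295 counts in all tables), Nnat with Blcap (111) and Igf2 with Igf2os (178). The use of strand in counting is not given in the sources used here, so the 3 values could include reads of those partners.

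Shares of wells with a count are given next for a few pools, thinned to 2000 counts per well. Igf2 was found in 95.6% of the E11.5 yolk sac negative wells and in 27.3% of the E9.5 ones (98.7% and 83.9% before thinning). Peg3 was found in 22% of positive and 85.9% of negative AGM wells at E11.5 (31.7% and 87.6% before thinning). For Grb10 these were 31.3% and 76.9% (39.7% and 84.6% before thinning). Mest, higher in positive wells of the E9.5 yolk sac, was found in 61.9% of positive and 7.73% of negative wells there (82.8% and 39% before thinning). In the stem cell control wells, median depth 2975 counts at E11.5 and 6733 counts at E9.5, the thinned shares were 30.7% and 7.44% for Igf2, 13.7% and 10.4% for Peg3, 7.99% and 13.3% for Grb10 and 2.77% and 6.15% for Mest. Stem cells can express these genes, so the control shares are no measure of free RNA alone.

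The first comparison set VE-cadherin positive against negative cells of the same tissue and stage. It compares sort gates and not cell types. At E11.5 only 49.1% of the AGM and 39.5% of the yolk sac positive wells had at least 3 endothelial markers. By calls on pool totals the members leaned to the negative side in the AGM at both stages, whereas in the yolk sac the lean differed with stage. With TMM factors the E9.5 AGM calls were 2 lower and 3 higher. The members' median was then -0.60, against 0.07 over all genes. Nnat was lower in the positive pool in all 4 pairs, by log2 ratios of -2.66 (-3.22 to -2.14) and -3.75 (-4.12 to -3.41) in the AGM and yolk sac at E11.5 and -2.78 (-3.36 to -2.23) and -3.34 (-5.65 to -1.75) at E9.5. It was 1 of 9 members with enough counts in every pair, and 0.555% of 7026 such genes behaved that way. None of the 9 was higher in all 4 pairs (1.86% of all genes were). With at least 100 counts over each pair, Nnat dropped out for want of counts in the yolk sac of E9.5.

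Among AGM cells of E11.5, 6 of 10 members had a call as lower in positive wells and 0 as higher, where 40% of 8622 genes tested were lower and 6.65% higher. They were Peg3 (log2 -3.24, -3.50 to -2.98), Cdkn1c (-3.22, -3.92 to -2.59), Meg3 (-3.00, -3.39 to -2.64), Dlk1, Nnat and Grb10. The median over the members was -2.35, against -0.80 over all genes. With TMM factors the 6 remained, and 19% of all genes were lower. They also remained with haemoglobin and mitochondrial genes left out of the totals, where 23.8% of all genes were lower and 9.43% higher. Igf2 (-0.75), H19 (-0.46), Mest (-0.55) and Plagl1 (-0.16) stayed within 2-fold. In the E9.5 AGM the same 6 were lower and Plagl1 was higher (2.07, 1.54 to 2.63), with 21.3% of 9877 genes lower and 7.22% higher. Here the size was near the limit for Meg3 (-1.29), Peg3 (-1.17), Cdkn1c (-1.09) and Grb10 (-1.02). With TMM factors 2 members were lower and 3 higher, and 12.5% of all genes were lower and 11.6% higher.

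The yolk sac pairs gave opposite pictures. At E11.5, 5 of 10 members were lower in the positive pool and 0 higher: Nnat, Dlk1 (-2.64, -3.43 to -1.93), Plagl1 (-2.07, -2.42 to -1.75), Meg3 (-1.51, -1.70 to -1.32) and Igf2 (-1.25, -1.35 to -1.14). Over all genes 13.8% were lower and 9.3% higher. With TMM factors 5 members were lower and 0 higher, beside 13.4% and 9.7% of all genes. Without haemoglobin, mitochondrial and ribosomal RNA rows in the totals the members gave the same counts, beside 10.6% and 12% of all genes. At E9.5, 6 of 9 were higher in the positive pool and 1, Nnat, was lower, where 41.7% of all genes were higher and 2.53% lower. The 6 were Mest (3.59, 3.35 to 3.84), Cdkn1c (2.25, 1.49 to 3.05), Meg3 (2.23, 1.93 to 2.53), Igf2 (2.13, 1.98 to 2.27), Plagl1 (1.98, 1.51 to 2.45) and Peg3 (1.96, 1.72 to 2.20). With TMM factors the count was still 6 higher and 1 lower, and 18.7% of all genes were higher and 9.91% lower. On pool totals H19, at 0.12 (0.04 to 0.20), was nearly level in this pair. In the negative pools the median haemoglobin share per well was 31.5% at E11.5 and 38.1% at E9.5. Its part in the difference was not tested.

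**Figure D3:**
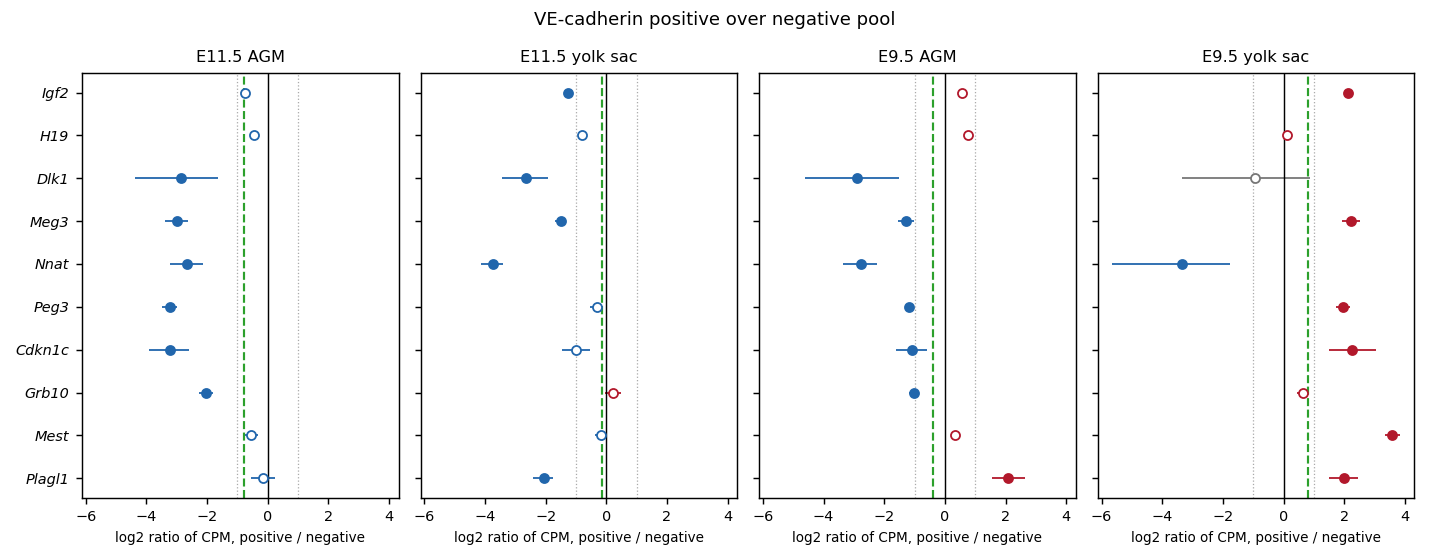
Log2 ratio of CPM, VE-cadherin positive over negative pool, for each gene in the 4 pairs of tissue and stage, with exact 95% intervals. Filled points are at least 2-fold (dotted lines) with at least 20 counts; grey points have fewer counts; the green dashed line is the median over all genes tested. Nnat lies at -2.66 or below in every panel, and Igf2, Meg3 and Plagl1 lie on opposite sides of 0 in the yolk sac panels.

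Wells of the positive pools at E11.5 were not alike. The splits below use totals that include haemoglobin, which differed between wells. Between the wells richest in haemoglobin and the others, Igf2 had log2 ratios of -0.76 in the yolk sac and -0.56 in the AGM positive pool. Without haemoglobin in the totals these were -0.08 and -0.06. Mest in the yolk sac went from -1.18 to -0.50 (-0.84 to -0.17) and Plagl1 in the AGM from -1.03 to -0.54 (-1.29 to 0.17). Meg3 had the largest split in the yolk sac, and it went from -1.63 to -0.95 (-1.38 to -0.53). The part of haemoglobin in the splits was not tested. In the 141 AGM wells with at least 3 endothelial markers, Plagl1 had 155 CPM against 56.7 CPM in the other wells (log2 1.45, 0.75 to 2.18) and Igf2 had 922 against 416 CPM (1.15, 0.89 to 1.41). In the 141 such wells of the yolk sac, Mest had 497 against 178 CPM (1.48, 1.17 to 1.80) and Igf2 1180 against 593 CPM (0.99, 0.81 to 1.17). Mest, Grb10 and H19 in the AGM wells and Plagl1, Grb10 and H19 in the yolk sac wells were also higher there, by 0.53 to 0.95, with intervals above 0, and so were Peg3 (0.53) and Meg3 (0.35) in the yolk sac wells. Mesenchymal markers gave another split. In the 57 yolk sac positive wells with at least 3 mesenchymal markers, Nnat had 161 against 36.2 CPM elsewhere in the pool (2.16, 1.43 to 2.87), Dlk1 39.1 against 9.78 CPM (2.00, 0.45 to 3.49) and Meg3 498 against 178 CPM (1.48, 1.12 to 1.84). Plagl1, with 137 against 59.7 CPM, and H19, with 2300 against 1874 CPM, were also higher in them, with intervals of the log2 ratio of 0.50 to 1.86 and 0.15 to 0.44. In the 21 AGM positive wells with these markers Peg3 (1.85, 1.22 to 2.45) and Meg3 (1.19, 0.11 to 2.14) were higher and Igf2 (-0.63, -1.21 to -0.10) lower, and the interval of Nnat held 0 (0.63, -1.33 to 2.14). Taking positive pools from wells with endothelial markers alone brought the E11.5 yolk sac ratio of Igf2 to -0.75, within 2-fold. The summed mesenchymal level was 375 and 777 CPM in the AGM and yolk sac positive pools at E11.5 and 27.9 and 70.9 CPM at E9.5. Wells without sorted cells had such counts too. The stem cell control wells had 416 CPM at E11.5 and 12.9 CPM at E9.5, and the negative control wells 3123 and 775 CPM. Macrophage markers, 10 of 10 present in 3 of these 4 pools and 6 in the E9.5 AGM one, summed to 919 and 909 CPM in the AGM and yolk sac at E11.5 and 30.5 and 504 CPM at E9.5. Visceral endoderm markers summed to far more in 1 of these pools, 8040 CPM in the E11.5 yolk sac, against 390 CPM in the E11.5 AGM and 9.46 and 96.9 CPM in the AGM and yolk sac at E9.5. The stem cell and negative control wells had 429 and 3181 CPM of them at E11.5. Whether marker counts came from such cells or from RNA outside them was not tested, nor was their part in the levels of the pools.

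The second comparison set the AGM against the yolk sac. Among positive pools the tissues were close for most members. At E11.5, 2 of 10 were lower in the AGM, Meg3 (-1.55, -1.96 to -1.17) and Dlk1 (-1.06, -2.68 to 0.34; -0.97 with no filter on wells), and 0 higher, where 4.48% of 7229 genes were lower and 11% higher. At E9.5 Nnat was higher (2.95, 1.28 to 5.31), 1 of 9, and 0 were lower, where 3.58% of 9057 genes were higher and 9.35% lower. With TMM factors 3 members were lower and 0 higher at E11.5 and 1 higher and 0 lower at E9.5, and the splits over all genes were 7.01% lower and 6.21% higher at E11.5 and 4.84% higher and 7.32% lower at E9.5. No member was called the same way at both stages (0 of 9, against 1.03% of all genes higher and 1.21% lower). Meg3 came nearest, at -0.97 (-1.26 to -0.69) at E9.5, and was lower at both stages when the 2% of wells with most counts were left out or when each well had equal weight. Igf2, H19, Grb10 and Mest lay between -0.32 and 0.19 at both stages.

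Among negative pools the tissues differed more, and the shift of all genes was large too. At E11.5 Grb10 (2.43, 2.24 to 2.63), Peg3 (2.42, 2.26 to 2.57) and Cdkn1c (1.46, 1.16 to 1.76) were higher in the AGM, 3 of 10, while Nnat (-1.61, -1.80 to -1.42) and Plagl1 (-1.37, -1.66 to -1.09) were lower. Over all genes 43.9% were higher and 5.54% lower, with a median of 0.88 against -0.36 over the members. TMM factors gave 2 members higher and 5 lower, with 12.7% of all genes higher and 13.9% lower. At E9.5, 8 of 10 members were higher in the AGM and 0 lower, led by Peg3 (3.64, 3.44 to 3.83), Cdkn1c (3.17, 2.51 to 3.88) and Mest (3.09, 2.84 to 3.35), where 56.1% of all genes were higher and 4.25% lower. TMM factors gave 6 members higher and 1 lower, beside 22.1% and 15.8% of all genes, and brought Igf2 from a log2 ratio of 1.24 to 0.10.

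Peg3, Cdkn1c and Grb10 were higher in the AGM negative pool at both stages, 3 of 10 members, a share close to the 32.4% of all genes that were. No member was lower at both (2.03% of all genes were). With TMM factors Peg3 alone stayed among the higher ones, and H19 was lower at both stages, as it also was with totals free of haemoglobin and mitochondrial genes. H19 was the one member that lay below 0 at both stages on pool totals, at -0.66 (-0.73 to -0.59) at E11.5 and -0.69 (-0.78 to -0.61) at E9.5.

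**Figure D4:**
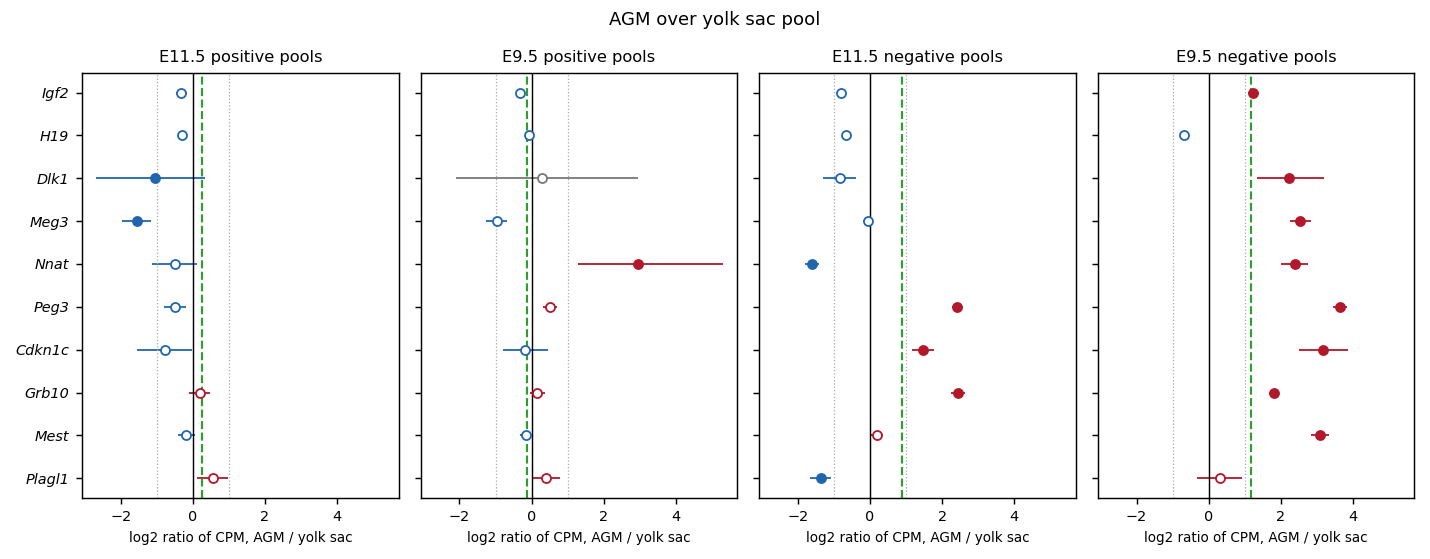
Log2 ratio of CPM, AGM over yolk sac pool, for each gene in positive pools and in negative pools at E11.5 and E9.5, with exact 95% intervals. Filled points are at least 2-fold (dotted lines) with at least 20 counts; the green dashed line is the median over all genes tested. Grey points have fewer counts. In positive pools most members lie within 2-fold, apart from Nnat (2.95) at E9.5 and Meg3 (-1.55) and Dlk1 (-1.06) at E11.5. Peg3, Cdkn1c and Grb10 lie right of 1 in both panels of negative pools.

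The third comparison set E11.5 against E9.5, with the positive control wells of each chip beside it. Members were higher at E11.5 mainly in the negative pools. In the yolk sac negative pool 9 of 10 were higher and 0 lower, where 32.5% of 9347 genes were higher and 14.6% lower. The members' median was 3.73, against 0.35 over all genes. Nnat led with 5.13 (4.81 to 5.46), followed by Dlk1 (4.46, 3.72 to 5.31), Plagl1 (4.16, 3.79 to 4.55), Meg3 (4.10, 3.85 to 4.36), Cdkn1c (3.82, 3.19 to 4.51), Igf2 (3.64, 3.52 to 3.77) and Mest (3.05, 2.80 to 3.31). Grb10 stayed level at 0.07 (-0.14 to 0.28). In the AGM negative pool 7 of 10 were higher and 0 lower, where 16.2% of all genes were higher and 10.9% lower. Plagl1 (2.48, 1.93 to 3.05) and Cdkn1c (2.11, 1.76 to 2.46) had the largest ratios, and Peg3 (0.81), Grb10 (0.70) and Mest (0.15) were within 2-fold. With TMM factors both counts were the same. Of all genes 25.5% were then higher and 22% lower in the yolk sac negative pair, and 14.4% and 12.4% in the AGM negative pair.

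In the positive pools most members stayed within 2-fold. In the AGM positive pool Nnat was higher (1.25, 0.51 to 1.99) and Peg3 lower (-1.26, -1.54 to -0.99), 1 and 1 of 9, where 9.42% of all genes were higher and 23.5% lower. With TMM factors 1 member was higher and 1 lower, beside 10.5% and 20.3% of all genes. Peg3 came within 2-fold at -0.86 when haemoglobin, mitochondrial and ribosomal RNA rows were left out of the totals, and 16.4% of all genes were then higher and 12.7% lower. In the yolk sac positive pool Nnat (4.72, 3.11 to 7.03) and Dlk1 (2.76, 0.98 to 5.16) were higher, 2 of 10, and 0 were lower, where 5.17% of all genes were higher and 35.8% lower. With TMM factors 3 were higher and 0 lower, beside 9.35% and 17.4% of all genes. On totals free of those rows the count was 6 higher, with 14% of all genes higher and 11% lower. Nnat was the 1 of 9 members higher at E11.5 in all 4 pairs (1.42% of 7320 genes were), and none was lower in all 4 (4.26% of all genes were). In wells with 1000 genes or more and a mitochondrial share of 10% or less, Nnat in the AGM positive pair was at 0.64, and with at least 100 counts over the pair it dropped out.

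The positive control wells, the same kind of RNA on each chip, also differed for some members. H19 had 42 counts in 47 wells at E11.5 and 21 counts in 46 wells at E9.5, 282 and 67.6 CPM (log2 2.06, 1.27 to 2.89). That estimate is above its ratio in each of the 4 pools, but its interval holds the 1.42 and 1.39 of the AGM and yolk sac negative pools. Igf2 gave 29 and 12 counts, 195 and 38.6 CPM (2.33, 1.32 to 3.44), more than its ratio in 3 of the 4 pools and less than the 3.64 of the yolk sac negative pool. The interval holds the 1.58 of the AGM negative pool. Nnat gave 7 and 2 counts (2.87, 0.47 to 6.17). That interval holds its ratios in all 4 pools, so these counts cannot place the control above or below any of them. Meg3 (0.42), Peg3 (0.64), Grb10 (-0.53), Mest (-0.11) and Cdkn1c (-0.94) had intervals that hold 0, on 1 to 21 counts a chip. Dlk1 had 0 counts in both sets of control wells, which allows up to 7.55% and 7.71% of wells with a count at E11.5 and E9.5. At a median of 2975 and 6733 counts per well that limits detection and not expression. Plagl1 had 3 and 0 counts.

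Other genes moved with the chip in those control wells. Mesenchymal markers, 9 of 10 and 4 of 10 present, summed to 416 CPM at E11.5 and 12.9 CPM at E9.5, and visceral endoderm markers, 8 of 9 and 3 of 9 present, to 429 and 16.1 CPM. Haemoglobin took 2.39% and 0.921% of their counts. Negative control wells held 17289 counts in 47 wells at E11.5, among them 24 of H19, 18 of Igf2 and 4 of Nnat. At E9.5 they held 6452 counts in 48 wells, among them 10 of H19, 3 of Igf2 and 0 of Nnat. Scaled to these small totals, H19, Igf2 and Nnat had 1388, 1041 and 231 CPM at E11.5. Peg3 had 521 CPM there and Meg3, Grb10 and Mest 347 CPM each. At E9.5 H19 had 1550 CPM (743 to 2850) and Igf2 465 CPM (95.9 to 1359). At E11.5 the H19 level lay below the 1578 to 3423 CPM of the cell pools of that chip. At E9.5 it lay above their 807 to 1417 CPM, with an interval that overlaps them. The levels given for the other members lay within the range of the cell pools of the same chip, for Igf2 670 to 1985 CPM at E11.5 and 159 to 695 CPM at E9.5. The part of RNA outside the cells in the stage ratios was not tested.

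**Figure D5:**
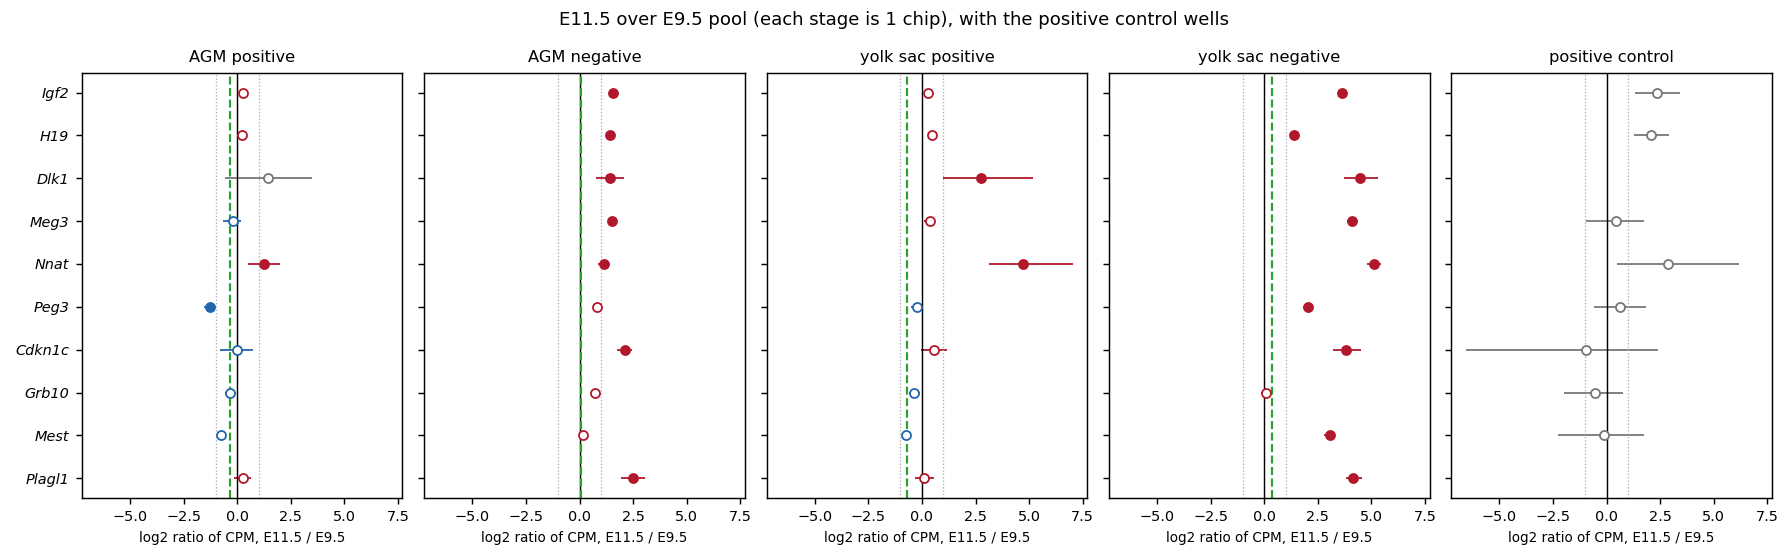
Log2 ratio of CPM, E11.5 over E9.5, for each gene in the 4 pools and in the positive control wells (grey), with exact 95% intervals. Filled points are at least 2-fold (dotted lines) with at least 20 counts; the green dashed line is the median over all genes tested; Dlk1 and Plagl1 have no control point because both chips were at or under 3 counts. A grey point in a pool panel has fewer counts. The yolk sac negative panel holds 9 filled points right of 1, and the control wells lie right of 1 for Igf2, H19 and Nnat.

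Related genes were counted from lists used whole. Of 35 other imprinted genes, 33 had a row in both tables. In the yolk sac negative pair of stages 19 of the 22 with enough counts were higher at E11.5 and 1 lower, where 32.5% of all genes were higher and 14.6% lower. In the AGM negative pair 6 of 22 were higher and 2 lower, where 16.2% and 10.9% of all genes were. Kcnq1, a potassium channel gene of the Cdkn1c cluster, was higher in the positive pool of all 4 gate pairs (1 of 16), by log2 ratios of 1.01 and 3.09 in the AGM and yolk sac at E11.5 and 3.54 and 5.29 at E9.5. These rest on 2 to 16 counts in the negative pools. In positive pools Asb4 was higher in the AGM at both stages (log2 1.53 and 2.41 at E11.5 and E9.5) and Rian was lower (-1.23 and -1.26), 1 and 1 of 16. Negative pools had 8 of 19 higher in the AGM at both stages: Sgce, Usp29, Zim1, Inpp5f, Kcnq1ot1, Zrsr1, Ppp1r9a and Asb4. Of all genes 32.4% had that call. Usp29 and Zim1 belong to the Peg3 cluster.

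Of 20 genes of IGF signalling, 19 had a row in both tables and none was called the same way in all 4 pairs of gate or of stage. Igf2r, the receptor that removes Igf2 and is itself imprinted, had 105 and 143 CPM in positive and negative AGM wells and 124 and 299 CPM in positive and negative yolk sac wells at E11.5. At E9.5 it stood at 75.7 and 91.2 CPM in the same AGM gates and 116 and 26.4 CPM in the same yolk sac gates. Igf1r, the receptor that carries the growth signal, had 196 and 287 CPM in positive and negative AGM wells and 95.3 and 163 CPM in positive and negative yolk sac wells at E11.5. The E9.5 pools gave 82.5 and 168 CPM in the same AGM gates and 113 and 39.6 CPM in the same yolk sac gates. In negative pools 6 of 13 were higher in the AGM at both stages: Igf1, Igfbp2, Igfbp5, Irs1, Igf2bp2 and Pappa, again beside 32.4% of all genes. Igfbp7, a binding protein, was lower in the AGM positive pools at both stages (-2.74, -4.25 to -1.53, and -4.12, -6.46 to -2.47). Of the 9 Cdk inhibitors and cyclins, Cdk2, Cdk4, Ccnd1 and Ccnd2 were higher in the AGM negative pool at both stages (4 of 8, beside 32.4% of all genes), and none was called in all 4 pairs of gate or of stage.

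Likeness of pattern was measured as Pearson's r of log2(CPM + 1) over the 8 pools, among 8733 genes with at least 100 counts. It is a description, since the pools share chips, depth and haemoglobin content. Meg3 was most like Rian (0.989), its neighbour on chromosome 12. Rian had 37.6 and 286 CPM in positive and negative AGM wells and 88 and 324 CPM in positive and negative yolk sac wells at E11.5. Its E9.5 levels were 44.7 and 126 CPM in the same AGM gates and 107 and 14.5 CPM in the same yolk sac gates. Grb10 was most like Pkdcc (0.990), with Usp29 (0.982) also among its top 3. Igf2 was most like Rrbp1 (0.979), H19 like Arfgap3 (0.982), Dlk1 like Frem1 (0.981), Nnat like Sdc2 (0.969), Peg3 like Sec63 (0.989), Cdkn1c like Arhgef17 (0.990), Mest like Birc6 (0.983) and Plagl1 like Anxa6 (0.968).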

How the data were processed

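Single-cell RNA from 2 ICELL8 chips, 1 per stage, was sequenced in 1 run on a NextSeq 500, per the labels. The deposited tables give whole-number counts for each gene in each well, with 20823 and 20575 gene rows and 1576 and 1378 wells at E11.5 and E9.5. The authors used FastQC, cutadapt and STAR on mm10 (GRCm38), per the submitters' processing notes. The counting tool, annotation, strand use and molecular identifiers are not given in the sources used here.

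Each well took its stage, tissue and gate from the deposited tables, and wells with at least 500 genes were kept. No doublet caller was run. CPM were counts summed over a pool's wells per summed total. Log2 ratios have exact conditional binomial intervals, levels exact Poisson ones, and 0 counts were set to 3. Thinned shares are hypergeometric expectations at 2000 counts per well, without shallower wells.

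Members, lists and alternatives were chosen with earlier results of these data known. All 10 members are named. Genes of other lists are named where every pair of a comparison had the same call, or from the 8 with most counts, and up to 3 genes most like each member are named. Igf1r was named after its values were seen. The calculation of ratios and calls was checked on simulated counts that held counting error alone. That check does not cover the spread between wells or embryos, haemoglobin or RNA outside the cells. Positions came from GENCODE vM21 and promoter windows from RefSeq. Software was Python 3.11.15, numpy 2.4.6, pandas 2.3.3, scipy 1.17.1, matplotlib 3.10.9, R 4.3.3 and edgeR 4.0.16 (TMM factors).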

Additional observations from a re-analysis of the deposited data

Results flagged for a closer look

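Several members lay at least 2-fold apart in opposite directions in different pairs of the same comparison. Each pool is 1 sample, so none of these differences between pairs was tested. Between positive and negative wells, Igf2 had a log2 ratio of -1.25 at E11.5 and 2.13 at E9.5 in the yolk sac. Meg3 had -3.00 in the E11.5 AGM, -1.51 in the E11.5 yolk sac, -1.29 for AGM cells of E9.5 and 2.23 in the E9.5 yolk sac. Peg3 had -3.24 and -1.17 in the AGM at E11.5 and E9.5, and 1.96 in the E9.5 yolk sac. For Cdkn1c the same 3 pairs gave -3.22, -1.09 and 2.25. Plagl1 had -2.07 in the E11.5 yolk sac, and 2.07 and 1.98 in the AGM and yolk sac at E9.5.

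Between AGM and yolk sac negative wells, Nnat had -1.61 at E11.5 and 2.39 at E9.5. Between E11.5 and E9.5, Peg3 had -1.26 in AGM positive wells and 2.03 in yolk sac negative wells. Of these contrasts, those of Igf2, Meg3, Peg3, Cdkn1c and Nnat include the E9.5 yolk sac negative pool, the deepest of the 8, while that of Plagl1 also holds between the E11.5 yolk sac and the E9.5 AGM.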

How the results depend on the processing

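None of the 61 called ratios of members, among 117 with at least 20 counts, changed sign under any of the 11 other settings in the tally. The settings added after seeing the data were totals without haemoglobin, mitochondrial and ribosomal RNA rows, positive pools from wells with endothelial markers, and pairs without the E9.5 yolk sac negative pool. Calls lost and gained numbered 7 and 8 with TMM factors, 6 and 7 with haemoglobin and mitochondrial genes out of the totals and 6 and 10 with ribosomal RNA rows also out. Under the others 0 or 1 were lost and 0 to 4 gained.

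Members lower in the positive pool in every gate pair numbered 1 (Nnat), 0 with at least 100 counts over the pair, where fewer genes were tested, and 3 (Dlk1, Meg3, Nnat) without the E9.5 yolk sac negative pool. Members lower in the AGM at both stages in positive wells numbered 0, and 1 (Meg3) without the 2% of wells with most counts or with equal weight per well. In negative wells, 3 were higher in the AGM at both stages, and 1 (Peg3) with TMM factors. There 0 were lower, but 1 (H19) with TMM factors and with either reduced total, and 2 (Nnat, Plagl1) when only E11.5 was left. Members higher at E11.5 in all 4 pools numbered 1 (Nnat), and 0 both with at least 100 counts and in wells with 1000 genes or more and a mitochondrial share of 10% or less. Beyond fewer counts or pairs, the cause of these changes was not tested. A floor of 1 count changed nothing, as no member was at 0 in a pool. No paired analysis was possible because each group is 1 pool and the groups share a single replicate number.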
